A study of Mus musculus with 6 samples.

Results

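The BCL2 family decides whether a cell opens its mitochondria and dies. The 10 members described here were taken by name from the authors' deposited table, where each has 1 entry among 29209, and all 10 are among the 18543 tested entries. They are the anti-death genes Bcl2, Bcl2l1 and Mcl1, the pore-forming effectors Bax and Bak1, and the BH3-only genes Bid, Bcl2l11, Bmf, Bbc3 and Pmaip1. RNA came from subcutaneous tumours in NCr nude mice that had been injected with spleen cells of diseased mir-155LSLtTA animals. By that design, doxycycline (DOX) switches off the overexpressed microRNA. In 3 samples the mice ate chow with 2.3 mg/kg DOX for 16 hours before harvest, and in 3 they received none. All 6 samples are tumours of transgenic cells, dispersed to single cells with the red cells lysed. There is no DOX group without the transgene, so an effect of DOX itself and loss of miR-155 cannot be told apart. Nude mice keep myeloid, stromal and B lineage cells of their own, so host RNA may be part of the samples.

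In healthy and malignant lymphocytes, anti-death members hold the effectors and the BH3-only proteins in check. BH3-only proteins are made or activated under stress or loss of growth signals. They bind into a groove of the anti-death proteins, or touch BAX and BAK directly. When BAX or BAK oligomerise, the outer mitochondrial membrane becomes leaky, cytochrome c escapes and caspases are activated. Lymphoid tumours often depend on 1 or more anti-death members. Family proteins are also controlled by cleavage, phosphorylation and degradation, none of which RNA shows.

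The table gives a linear fold, its log2 value, an unadjusted p and an adjusted p per entry, and no level or spread per sample, so sample values and depth are unknown here. It does not say which group is the numerator. Here DOX is taken as the numerator, and every direction given turns over if the authors divided the other way. A gene is said to have risen or fallen where the authors' adjusted p was under 0.05. Errors were derived from each log2 fold and its unadjusted p as for a normal test, and are given as an approximate 95% interval. Each gene has 1 entry, so splice forms with opposite roles, such as the long and short forms of Bcl2l1, cannot be told apart.

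By the calls of the authors' deposited table, 3 of the 10 members fell, 1 rose and 6 did not pass. Bid, Bcl2 and Bak1 fell, and Bmf rose. Over all tested entries 5.72% rose and 5.61% fell, so 3 falls and 1 rise among 10 members chosen with earlier results known are a description, not a test of the family. Per the authors' deposited table the same 4 members lay under 0.05 by unadjusted p, as did 22.4% of all tested entries. The median log2 fold of the members was -0.74, against 0.17 over the 15784 tested entries with a finite fold. In each of the roles with a call, at least 1 member that did not pass lay beside it, and among the BH3-only genes the calls went in opposite directions. Fewer cells of a type and less RNA per cell cannot be told apart in such bulk tumour samples.

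**Figure D1:**
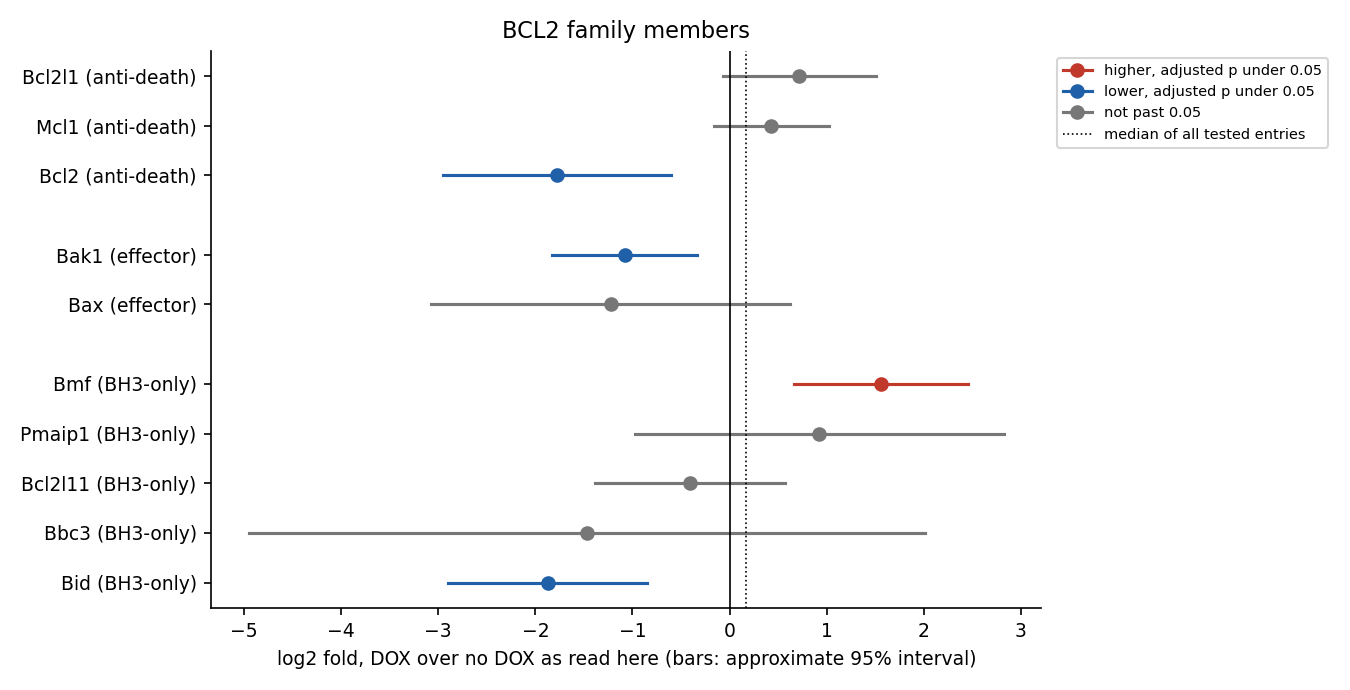
Log2 fold of each member (horizontal axis, DOX over no DOX as read here), grouped by role, with points for the fold in the authors' deposited table and bars for the approximate 95% interval. Bid, Bcl2 and Bak1 lie to the left of 0 and Bmf to the right, with intervals that do not reach 0, and the bar of Bbc3 is the widest.

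Sequences are given for the miR-155 seed match and for stretches around start sites. The first is the mature microRNA that the transgene overproduces, from RefSeq (GRCm38.p6), with the seed, bases 2 to 8, in capitals. The second is a stretch of the Bid 3' UTR with a match to that seed (GENCODE release M21, bases 363 to 369 of 1427), with the 7 bases complementary to the seed in capitals. It is shown because Bid is the member with the largest fall and the only one of the 4 changed members with such a match.

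mmu-miR-155-5p: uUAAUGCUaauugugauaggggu
Bid seed match: tctgtctaaggagaacAGCATTAggagagg

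Matches to AGCATTA or GCATTAA were sought on the sense strand of the longest annotated 3' UTR of each member. The 2 motifs overlap in 6 bases, so a site can match both. Pmaip1 was the only other member with a match, having 2 sites in 2192 bases that match both motifs. Its log2 fold in the authors' deposited table was 0.93 and did not pass (adjusted p = 0.717). Of 14084 tested genes with an annotated 3' UTR, 13.5% hold at least 1 of both motifs, against 2 of 10 members. The shorter motif GCATTA, which both contain, also occurs 2 times in the 5086 bases of Bcl2 and 1 time in the 2353 bases of Mcl1, and in 21.1% of the tested genes. Bmf, the member that rose, has none in 3801 bases. The same holds for Bak1 (1121 bases), Bax (224), Bcl2l1 (1477), Bcl2l11 (4218) and Bbc3 (971). A match was found in 1 member that fell and 1 that did not pass, and none in the member that rose. With 2 of 10 members against 13.5% of tested genes, these counts are a description only. Bid fell, as read here, with DOX, which by design switches off the microRNA. Whether a match bears on the fold of any member was not tested.

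Promoters are shown for the member with the largest fall and for the one that rose, with the GC box GGGCGG, or its complement CCGCCC, in capitals. Each runs from 250 bases before to 50 after a RefSeq start on GRCm38.p6, the Bid window at chr6:120916775-120917074 and the Bmf window at chr2:118549637-118549936, both on the minus strand. The Bmf gene has 3 such windows, and the one with the GC box is shown. The third is the only window of Bax, at chr7:45466849-45467148 on the minus strand, with the E-box CACGTG, the motif bound by MYC and its partner MAX, in capitals. It is shown because Myc ranked 3 by unadjusted p in the authors' deposited table.

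Bid promoter: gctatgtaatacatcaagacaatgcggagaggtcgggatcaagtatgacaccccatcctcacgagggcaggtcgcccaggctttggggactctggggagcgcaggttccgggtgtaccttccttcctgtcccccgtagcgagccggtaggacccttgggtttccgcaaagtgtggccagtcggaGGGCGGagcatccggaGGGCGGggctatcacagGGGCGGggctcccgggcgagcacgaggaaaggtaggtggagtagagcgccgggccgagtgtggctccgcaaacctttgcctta
Bmf promoter: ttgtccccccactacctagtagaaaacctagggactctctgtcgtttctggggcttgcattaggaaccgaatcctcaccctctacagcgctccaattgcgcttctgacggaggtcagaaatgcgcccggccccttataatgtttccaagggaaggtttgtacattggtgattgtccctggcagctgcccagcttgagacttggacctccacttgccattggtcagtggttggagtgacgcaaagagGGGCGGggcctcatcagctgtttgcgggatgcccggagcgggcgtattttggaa
Bax promoter: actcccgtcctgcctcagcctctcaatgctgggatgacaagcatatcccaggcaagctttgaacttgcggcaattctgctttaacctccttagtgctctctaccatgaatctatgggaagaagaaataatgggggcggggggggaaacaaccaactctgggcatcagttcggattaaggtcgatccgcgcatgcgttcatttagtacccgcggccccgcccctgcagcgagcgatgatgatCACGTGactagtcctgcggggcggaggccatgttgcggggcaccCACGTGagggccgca

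RefSeq windows were read for 9 of the members, 16 windows in all. Pmaip1 was left out of this search, so the counts below do not cover it. The GC box, read on both strands, occurs 3 times in the Bid window, 1 time in the Bmf window shown and 7 times in that of Bcl2. Among members that did not pass, every window of Bax, Mcl1, Bcl2l11 and Bbc3 holds the GC box. It is not found in the other windows of Bmf or in those of Bak1 and Bcl2l1. Of 32851 windows of this length, 35.7% hold it. CACGTG, which reads the same on both strands, starts at -9 and +36 in the Bax window and at -64 in 1 of 3 windows of Bbc3. It was found in no window of the 4 changed members, and 7.15% of all windows have it. The motif of STAT factors, TTCNNNGAA, was found in none of the 16, against 8.30% of all windows.

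The FOXO motif GTAAACA, or its complement TGTTTAC, is in 3.65% of all windows. Among the member windows read, it lies in 1 each of Bcl2l11 and Bbc3, both textbook FOXO target genes. Those stretches are printed with the motif in capitals. They are at chr2:128125791-128125837 and chr7:16310074-16310120, on the plus strand of GRCm38.p6, and the motifs in them start at -227 and -167. Neither gene passed the threshold.

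Bcl2l11 window: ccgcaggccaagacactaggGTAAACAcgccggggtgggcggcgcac
Bbc3 window: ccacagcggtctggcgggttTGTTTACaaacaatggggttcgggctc

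Of the anti-death genes, Bcl2 alone passed, and it fell. Its protein, the founding member of the family, sits on mitochondria and the endoplasmic reticulum and sequesters BH3-only proteins. The log2 fold of Bcl2 was -1.78, a 3.43-fold lower level (approximate 95% interval -2.95 to -0.60, adjusted p = 0.0316), in the authors' deposited table. Only 4.44% of tested entries with a finite fold had a lower one.

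Bcl2l1, which encodes BCL-XL, and Mcl1, which encodes a short-lived protein that lymphoid progenitors need, had folds above 1 and did not pass. For Bcl2l1 the authors' deposited table gives a log2 fold of 0.72 (-0.07 to 1.51, adjusted p = 0.292). Mcl1 had a log2 fold of 0.43 (-0.16 to 1.02, adjusted p = 0.459) in the authors' deposited table. Its interval is among the narrowest, with a smaller implied standard error in 3.17% of entries, and it spans no fall beyond 0.16 and no rise beyond 1.02 on the log2 scale. For this gene, then, a change as large as that of Bcl2 lies outside the interval.

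These folds also give changes in the ratios among these anti-death transcripts, whose levels are unknown. Of the genes in the ratios, Bcl2l1 and Mcl1 were not called. The ratio of Bcl2l1 to Bcl2 was 5.64-fold higher after DOX, a log2 difference of 2.50, and that of Mcl1 to Bcl2 was 4.61-fold higher (2.21), from folds in the authors' deposited table. Standard errors of these differences would be 0.72 and 0.67 if the genes varied independently. They share samples, so their true error is unknown and no test was made.

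Both effectors had folds below 1, and Bak1 fell. BAK resides on the outer mitochondrial membrane, held by VDAC2 and by anti-death partners. The log2 fold of Bak1 was -1.08, a 2.11-fold lower level (-1.82 to -0.33), in the authors' deposited table. With an adjusted p of 0.0424 in that deposited table of the authors, it lay nearest to the threshold of the members that passed. Bax, whose protein is mostly cytosolic until activated, had the lower log2 fold of both, -1.22, and did not pass (-3.08 to 0.63, adjusted p = 0.522) in the authors' deposited table. A smaller fold thus does not separate their calls. The implied standard error was 0.94 for Bax and 0.38 for Bak1, but it is derived from the unadjusted p and restates that difference.

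Among BH3-only genes, Bid fell and Bmf rose. BID links death receptors to mitochondria once caspase 8 has cut it. Its log2 fold was -1.87, a 3.66-fold lower level (-2.90 to -0.85, adjusted p = 0.00656), in the authors' deposited table. By unadjusted p Bid ranked 981 of 18543, ahead of the other members. Casp8 itself did not pass, with a log2 fold of -0.08 (adjusted p = 0.964) in the authors' deposited table.

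Bmf encodes a BH3-only protein held on the actomyosin cytoskeleton through a dynein light chain, and its targets include BCL2. The log2 fold of Bmf was 1.56, a 2.94-fold higher level (0.66 to 2.45, adjusted p = 0.0103), in the authors' deposited table. Dynll2, the light chain that binds BMF, fell, with -1.28 (adjusted p = 0.0398) in the authors' deposited table. Dynll1, which binds the product of Bcl2l11, did not pass, with -0.21 (0.837) in the authors' deposited table. From Bid to Bmf the log2 folds span 3.43, and the ratio of Bmf to Bid was 10.8-fold higher after DOX.

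The other BH3-only genes did not pass. Bcl2l11 encodes BIM, which binds all anti-death members and removes autoreactive lymphocytes. Its log2 fold was -0.41 (-1.39 to 0.57, adjusted p = 0.792) in the authors' deposited table. Bbc3 and Pmaip1 encode the p53-induced proteins PUMA and NOXA, the latter selective for MCL1. Bbc3 had a log2 fold of -1.47 (-4.95 to 2.01, adjusted p = 0.784) in the authors' deposited table. That of Pmaip1, 0.93 in the authors' deposited table, had an interval of -0.97 to 2.82. The implied standard errors of 1.78 for Bbc3 and 0.97 for Pmaip1 compare with a median of 0.61 over all entries that have one. A fall like that of Bid and a rise like that of Bmf both lie inside the interval of Bbc3, while that of Pmaip1 takes in only the rise.

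**Figure D2:**
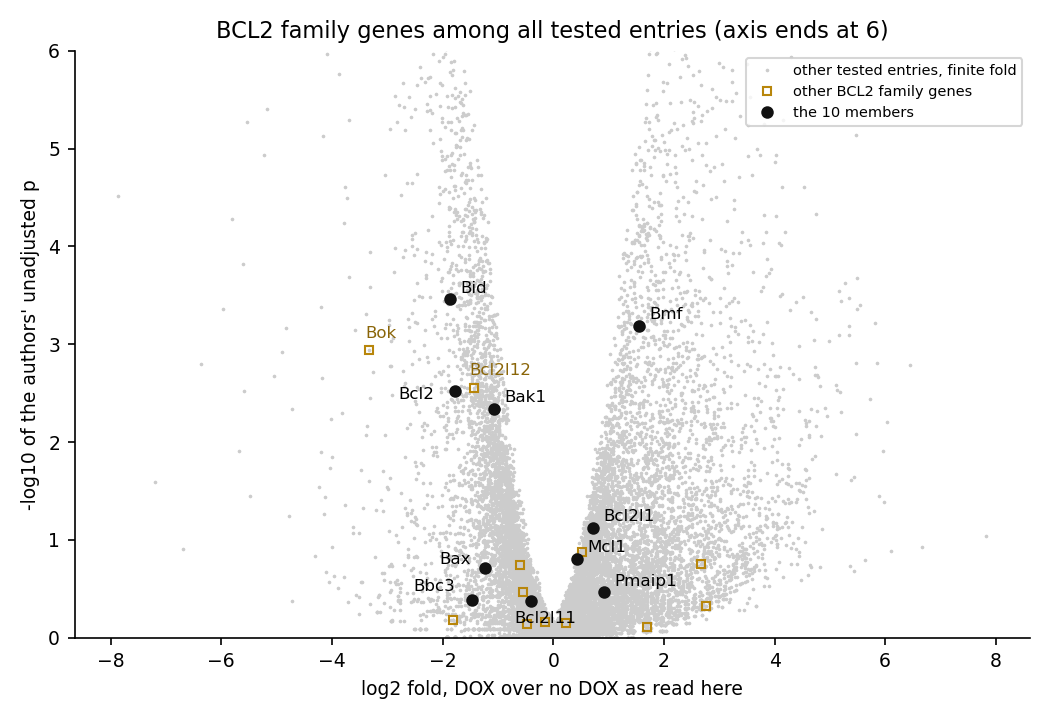
Log2 fold (horizontal axis) and -log10 of the authors' unadjusted p (vertical axis, which ends at 6 and leaves out 239 entries above it) for tested entries with a finite fold in the authors' deposited table. Bid and Bmf stand highest of the 10 members, on opposite sides of 0, and Bok and Bcl2l12 are the genes of the wider family past the threshold.

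The wider family was read from a list of 16 further genes. Of 14 tested, 0 rose and 2 fell, against 5.72% and 5.61% of all tested entries. An unadjusted p under 0.05 was listed for 2, against 22.4% of all tested entries. Their median log2 fold was -0.31 over 12 finite folds in the authors' deposited table. Bok, a relative of Bax and Bak1, had the lowest fold, -3.33 (-5.33 to -1.32, adjusted p = 0.0159), of these in the authors' deposited table. Bcl2l12, a divergent relative, fell by 1.44 on the log2 scale (-2.38 to -0.50, adjusted p = 0.0300) in the authors' deposited table.

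The A1 genes Bcl2a1a and Bcl2a1b, anti-death genes of haematopoietic cells, did not pass, at 2.75 and 2.67 on the log2 scale per the authors' deposited table (adjusted p = 0.847 and 0.494). Bcl2a1d is listed there with an infinite fold and Bcl2a1c has no p. These copies are near-identical, and how reads were shared out between them is unknown. The anti-death gene Bcl2l2 (-0.15), the BH3-only gene Bad (-0.55) and the mitophagy genes Bnip3 (0.23) and Bnip3l (0.52) had log2 folds in the authors' deposited table that were not called.

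Downstream of the pore, 11 genes were tested, of which 0 rose and 1 fell in the authors' deposited table. The shares over all tested entries were 5.72% and 5.61%. The list had a median of -0.48 on the log2 scale. It held 3 unadjusted p-values under 0.05, a share near the 22.4% of all tested entries. Cycs, whose product cytochrome c is released through BAX and BAK pores, fell by 1.51 on the log2 scale (adjusted p = 0.00700) in the authors' deposited table. Apaf1 (0.12), which cytochrome c assembles into the apoptosome, and the initiator Casp9 (-0.03) were not called in the authors' deposited table. Xiap, a caspase inhibitor listed as Birc4, did not pass either (0.95, adjusted p = 0.174 per the authors' deposited table).

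Of 18 genes for proteins that bind, cleave or degrade family members, 3 fell and 1 rose in the authors' deposited table. Over all tested entries 5.61% fell and 5.72% rose. In this list 8 genes had an unadjusted p under 0.05, against 22.4% of all tested entries. Its median log2 fold was -0.68 over 17 finite folds in the authors' deposited table. The channel genes Vdac1 (-1.58, adjusted p = 0.000792) and Vdac2 (-1.22, 0.0155) fell beside Bak1 in the authors' deposited table, and Dynll2 was the third. Itpr2, an inositol trisphosphate receptor whose relatives are bound by BCL2, rose (1.19, 0.00656) in the authors' deposited table. Of the enzymes that set MCL1 protein levels, the deubiquitinase gene Usp9x had a log2 fold of 0.96 (0.0535) and the ligase gene Huwe1 one of -0.22 (0.937) in the authors' deposited table. Neither passed.

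Of 17 tested transcription factors reported to act on the family, 3 rose and 2 fell in the authors' deposited table. The shares over all tested entries were 5.72% and 5.61%. An unadjusted p under 0.05 was listed for 6 of these factors, against 22.4% of all tested entries. Trp53, whose product induces Bbc3, Pmaip1 and Bax, had a log2 fold of -1.63 and fell (adjusted p = 0.00256 per the authors' deposited table), and none of these 3 members passed. It is named as the regulator of members, beside the 4 factors of smallest adjusted p. Myb, whose product is reported to activate Bcl2, rose (1.34, 0.00198) while Bcl2 fell in the authors' deposited table. Bcl6, reported to repress Bcl2 in germinal centre B cells, rose by 2.75 (1.05e-05) and Ebf1 by 1.61 (0.000853) in the authors' deposited table. The level of Myc, the factor with the smallest adjusted p (4.34e-21), was 27.8-fold lower in the authors' deposited table. Foxo1 (0.91, 0.310), Foxo3, listed as Foxo3a (-0.44, 0.730), and Foxo4 (0.52, 0.644) were not called in the authors' deposited table.

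Markers of cell types were read in the same comparison. Over all tested entries 5.72% rose and 5.61% fell, and the median of finite log2 folds was 0.17. All 15 tested macrophage markers had folds above 1 and 3 rose, with log2 folds from 0.41 to 4.86 and a median of 1.87, in the authors' deposited table. Of 8 neutrophil markers 3 rose (finite log2 folds 1.07 to 5.96). Mpo is listed at a fold of 0 and Camp at an infinite one, and neither was called. Of 10 fibroblast markers 2 rose (-2.80 to 3.74). Endothelial markers held 1 fall among 7 (-1.04 to 2.53), and T and NK cell markers 0 calls among 8 (-1.57 to 4.24), in the authors' deposited table. An unadjusted p under 0.05 was listed for 8 of 15 macrophage, 5 of 8 neutrophil and 8 of 14 B lineage markers. The counts were 4 of 10 for fibroblast, 2 of 7 for endothelial and 1 of 8 for T and NK cell markers. Over all tested entries the share was 22.4%. B lineage markers, which would mark the injected lymphoid cells if these are of that lineage, had 4 rises and 1 fall among 14, with a median of 0.71 and a range of -4.12 to 5.46. The median of every marker list lay on the side of Bmf and opposite to Bid, Bcl2 and Bak1, as did the 0.17 of all tested entries. The B lineage list was split, with 9 folds above 1 and 5 below. The list median was 3.33 for neutrophil, 2.10 for fibroblast, 1.40 for T and NK cell and 0.89 for endothelial markers. The part of cell composition in the members' folds was not tested.

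**Figure D3:**
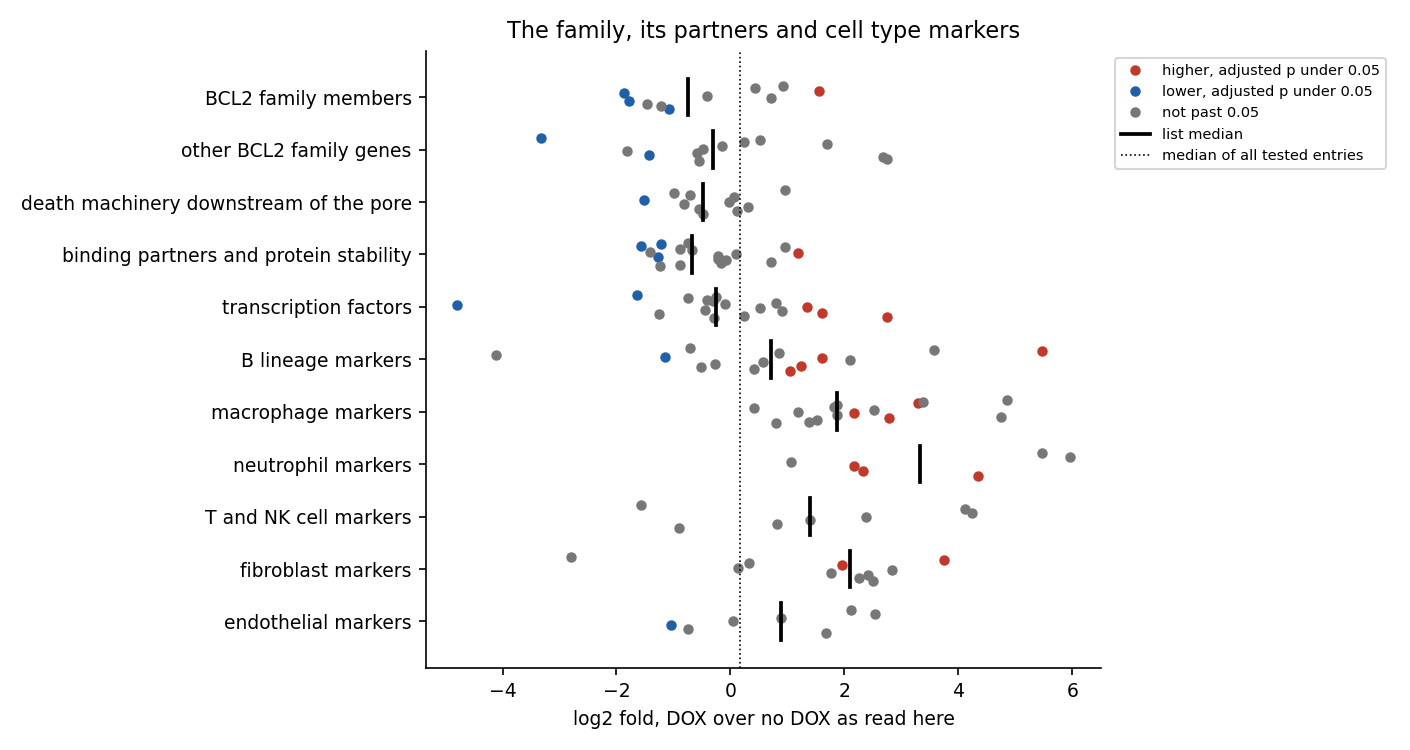
Log2 fold (horizontal axis) of each gene with a finite fold in the authors' deposited table, by list (rows), with a bar at each list's median and a dotted line at the median of all tested entries. The members' median of -0.74 is the lowest of the lists, and the macrophage, neutrophil and fibroblast medians of 1.87, 3.33 and 2.10 lie to the right.

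Fold went with transcript length across the table, so each member was set beside genes of like length. In the decile of shortest transcripts the median log2 fold was -0.66, and in the longest 0.73, over 12524 genes. Spearman's rho of log2 fold with length was 0.28 across these genes and 0.33 across the 10 members, given as a description because genes share libraries. Bcl2 has one of the longest transcripts, 7191 bases, and lay at -2.51 from the median of its decile on the log2 scale, further than its fold of -1.78 from 0. Bid (2189 bases) lay at -1.66 from its decile's median, Bak1 (2387) at -1.08 and Bmf (4642) at 1.32. Bax (1100 bases) is in the shortest decile and lay at -0.57 from its median, less than 1 implied standard error. The decile medians are smaller in size than the folds of the 4 changed members, so this subtraction could not turn their direction.

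**Figure D4:**
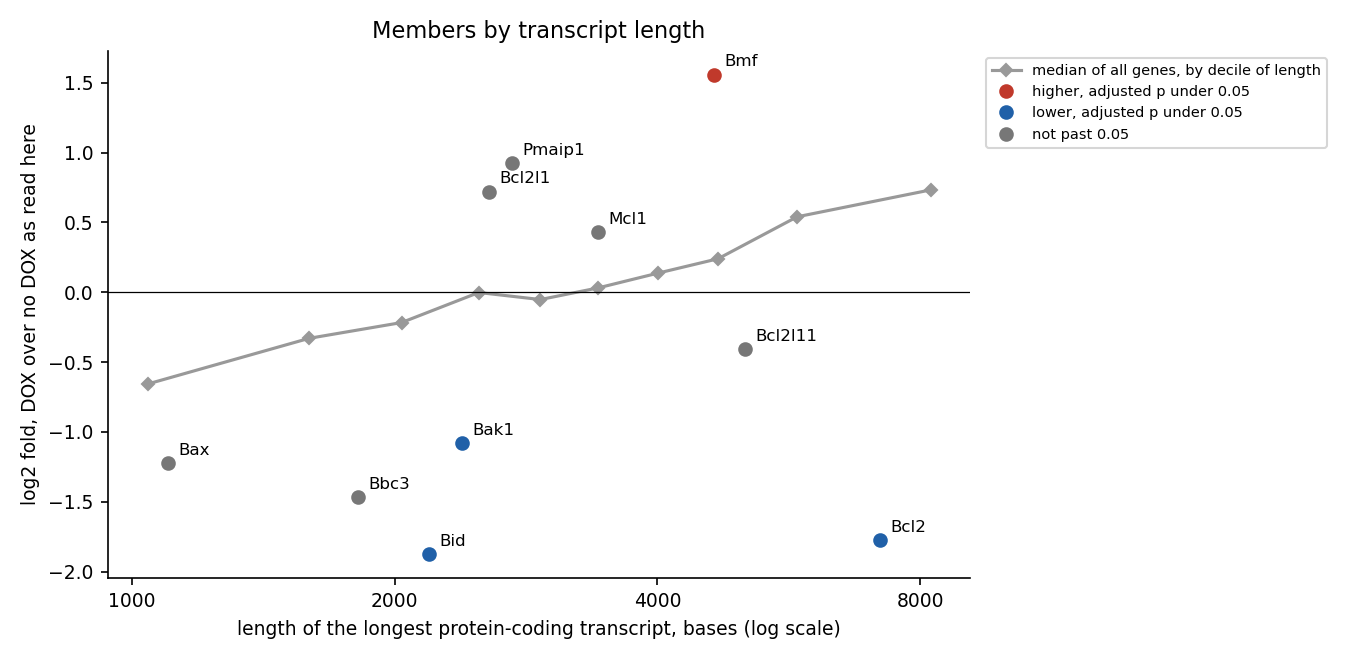
Log2 fold of each member in the authors' deposited table (vertical axis) against the length of its longest protein-coding transcript in bases (horizontal axis, log scale), with the median of all genes in each decile of length as a grey line. Bcl2, with 7191 bases, lies far below the line, while Bmf lies above it.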

How the data were processed

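RNA of 6 tumour samples, 3 with and 3 without DOX, was compared by the authors. The submitters' processing notes name the counting tool RSEM, the test package DESeq and the genome build mm9, without versions. Alignment and counting settings are not given in the sources used here. The deposited table, per the file headers, holds a linear fold as a ratio, with no numerator stated, a log2 column that was not used because some cells are not numbers, and unadjusted and adjusted p-values for each gene. A Benjamini-Hochberg adjustment over the 18543 tested entries gave the authors' adjusted values within 2.09e-06. The deposited ratio was put on the log2 scale. It is Inf in 2180 tested entries and 0 in 579, and no log2 fold is printed for those. No test across samples was run, as the table has no sample values. Whether samples of a group are separate animals is not stated in the labels, so the p-values reflect only the spread among these samples and it may be technical.

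Dividing the size of a log2 fold by the two-tailed normal quantile of its unadjusted p gave an implied standard error (p up to 0.9), and 1.96 of these either side gave the interval. Both are approximations, since DESeq's test is not normal. Symbols were matched through RefSeq by name (11736 tested entries), accession (1406) or unique synonym (2022), and 3379 did not match. Transcript and 3' UTR sequences are of GENCODE release M21 (GRCm38, not the authors' build) and served for sequence, length and GC. The members and lists were chosen with earlier results of these data known. Named genes were all members, every called gene of the wider family, up to 4 called genes of each other list and partners of members. Marker genes are given as counts and ranges. Uncalled partners and wider family genes were named after their values were seen. The adjustment and error formula were tested on simulated data. Python 3.11.15, pandas 2.3.3, numpy 2.4.6, scipy 1.17.1 and matplotlib 3.10.9 were used.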

Additional observations from a re-analysis of the deposited data

How the results depend on the processing

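At an adjusted p under 0.01, 1 member (Bid) fell and 0 rose, against 3.07% and 3.11% of all tested entries. Under Bonferroni 0 fell and 0 rose, against 0.831% and 0.739%. These settings are stricter by construction. The counts of 3 lower and 1 higher stood at an adjusted p under 0.1 (7.35% lower and 7.74% higher over all entries), among finite folds only (6.96% and 7.06%), and without clone-named or predicted identifiers (13509 entries, 7.52% and 5.42%). The members' median of -0.74 became -0.92 after subtraction of the median of all tested entries. It became -0.61 relative to each member's decile of transcript length and -0.65 relative to its decile of GC, both chosen after seeing the data. No paired analysis was possible because the table has no values per sample, and for the same reason no replicate could be left out and no filter on low values moved. The median from the deposited log2 column was not run, because that column has cells that are not numbers. Depth is unknown, so the wide intervals of Bax, Bbc3 and Pmaip1 cannot be tied to low counts.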
